A study of Mus musculus with 20 samples.

Results

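Cholesterol homeostasis in the mouse hippocampus was followed through 34 genes, chosen by name as the enzymes, carriers, storage proteins and sterol sensors of the pathway. Of these, 18 were synthesis enzymes and 16 were transport, storage and regulator genes, and all 34 passed a filter on low counts that left 16692 of 47729 gene identifiers. The tissue was hippocampus from male C57BL/6 mice, and its RNA was read in 4 groups of 5 libraries. The 24mEE mice were 24 months old and had spent their last 2 months in an enriched environment (EE), a large cage with running wheels, tunnels and climbing objects that were moved weekly. The 24mSC mice were 24 months old and came from standard cages (SC). The 5mEE and 5mSC mice were 5 months old and came from an enriched environment and from standard cages, and the length of EE at 5 months was not given in the sources used here. The labels name no transgene and no drug in any group. The study also tested 24mEE, 24mSC and 5mSC mice in a Barnes maze, a test of spatial memory. By its methods the hippocampi came from another group of mice than those of the maze. No maze test is described for 5mEE mice.

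Brain cholesterol is made in the brain itself, because lipoproteins of the blood do not cross the blood-brain barrier. Acetyl units are joined to mevalonate and to squalene, squalene is closed into lanosterol, and lanosterol is trimmed to cholesterol in the endoplasmic reticulum. The transcription factor SREBP2, encoded by Srebf2, drives most of these enzymes when sterols in that membrane are low: SCAP escorts it to the Golgi for cleavage, and INSIG1 and INSIG2 hold SCAP back when sterols are high. SREBP1, encoded by Srebf1, acts mainly on fatty acid synthesis, and the liver X receptors (Nr1h2, Nr1h3) sense oxysterols and switch on export genes such as Abca1, Abcg1 and Apoe. Astrocytes load cholesterol onto APOE particles for neurons, oligodendrocytes use it for myelin, and neurons clear the surplus through CYP46A1, the cholesterol 24-hydroxylase.

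Libraries held 10963348 to 34107138 counts, and no pair of libraries was identical. The shallowest library, 5mSC replicate 3, had 26.8% of its counts on the 2 mitochondrial ribosomal RNA genes, against 0.883% to 1.82% in the other 19 libraries. Over the 16692 genes tested, the log2 levels of 5mSC replicate 3 correlated with those of other libraries at a median r of 0.938 and those of 5mSC replicate 1 at 0.985, against 0.991 to 0.994 elsewhere. 5mSC replicate 3 also had the highest level of choroid plexus and meningeal fibroblast markers, 3.08 and 4.11 in mean log2(CPM + 0.5), and 24mSC replicate 1 the highest of blood markers, 5.06. Replicates 1 and 3 belong to 1 group, so the comparisons that hold 5mSC were also fitted without them. Both values are given for most of the genes described. Marker lists of dentate gyrus granule cells and of pyramidal cells of CA1 to CA3, 6 genes each, averaged 4.45 to 5.77 and 5.08 to 5.91 on the same scale over all libraries, and no marker of either list was at 0 in a group. A list of 7 neocortex markers was also detected, at 4.44 to 5.05 in 24mEE, 4.83 to 5.21 in 24mSC, 4.47 to 4.98 in 5mEE and 4.43 to 5.12 in 5mSC.

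Levels are given in CPM, counts relative to the library total, after scaling of the libraries by the trimmed mean of M values (TMM). Divided by exon length, the lipoprotein Apoe stood at the top with 656 ± 105 CPM per kb (SD, n = 20), above 99.6% of the genes tested. It was followed by Hmgcs1, the HMG-CoA synthase at the entry of the pathway, with 52.4 ± 7.51 CPM per kb, and by Cyp46a1 with 38.6 ± 4.45 CPM per kb. Lrp1, a receptor for APOE particles, had 29.3 ± 4.28 CPM per kb and Srebf2 had 28.1 ± 3.53 CPM per kb. Srebf1 had less than Srebf2, at 12 ± 2.64 CPM per kb, and Insig1 and Insig2 were close to each other at 15.1 ± 3.30 and 15.9 ± 1.53 CPM per kb. Near the bottom stood Lss, the oxidosqualene cyclase that makes lanosterol, with 3.04 ± 0.512 CPM per kb. Its exon length, 10787 bases, was the longest of the enzymes, so its rank rests in part on this division. Before it, the group means of Lss were 28.1 to 38.2 CPM. Below Lss came the enzyme Tm7sf2 with 3.02 ± 0.336 CPM per kb and Nr1h3 with 2.01 ± 0.847 CPM per kb. The isomerase Idi1 had 0.729 ± 0.149 CPM per kb, and the farnesyl diphosphate synthase Fdps had 0.459 ± 0.346 CPM per kb. The values of Idi1 and Fdps are uncertain, since 25.29% of the 50-base stretches of Idi1 and 26.19% of those of Fdps also occur in other annotated genes, and such reads could be lost or split between them. The same holds in part for Acat2 (39.1% shared, with Acat3 and Tcp1) and Fdft1 (26.54% shared, mostly with Ctsb on the opposite strand, which these libraries could not tell apart).

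Promoter sequences are shown for the pair of genes that passed the test between ages, Srebf1 and Lss, and for Srebf2, Hmgcs1 and Msmo1, a master regulator and enzymes whose promoters held a sterol regulatory element of the letters TCACNCCA. Each run goes from 250 bases before to 50 bases after an annotated start of the gene (RefSeq, GRCm38.p6), read 5′ to 3′ on the gene's strand, and capitals mark TCACNCCA and the CCAAT box that NF-Y binds, on either strand, so that a box on the other strand reads ATTGG.
Srebf1 has 3 annotated starts, and the promoter shown is that of the start farthest upstream, at chr11:60222532-60222831 on the minus strand. The Lss promoter lies at chr10:76531355-76531654 on the plus strand. Both held 1 CCAAT box and no TCACNCCA. The other Srebf1 promoters, not shown, also held no TCACNCCA, and the one at chr11:60210422-60210721 held 1 CCAAT box. The Srebf2 promoter lies at chr15:82147019-82147318 on the plus strand, the Hmgcs1 promoter at chr13:119690101-119690400 on the plus strand and the Msmo1 promoter at chr8:64733529-64733828 on the minus strand.
Srebf1: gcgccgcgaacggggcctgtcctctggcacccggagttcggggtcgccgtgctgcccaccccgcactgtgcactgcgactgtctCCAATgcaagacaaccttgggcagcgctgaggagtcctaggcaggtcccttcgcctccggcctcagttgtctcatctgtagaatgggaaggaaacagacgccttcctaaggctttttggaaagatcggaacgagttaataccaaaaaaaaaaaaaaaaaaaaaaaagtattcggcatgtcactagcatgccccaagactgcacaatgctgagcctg
Lss: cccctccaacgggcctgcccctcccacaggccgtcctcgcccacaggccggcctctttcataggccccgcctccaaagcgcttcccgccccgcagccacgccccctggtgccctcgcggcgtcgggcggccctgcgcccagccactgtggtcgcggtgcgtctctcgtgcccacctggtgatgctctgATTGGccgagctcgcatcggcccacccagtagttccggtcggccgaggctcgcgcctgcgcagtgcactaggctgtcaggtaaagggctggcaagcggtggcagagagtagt
Srebf2: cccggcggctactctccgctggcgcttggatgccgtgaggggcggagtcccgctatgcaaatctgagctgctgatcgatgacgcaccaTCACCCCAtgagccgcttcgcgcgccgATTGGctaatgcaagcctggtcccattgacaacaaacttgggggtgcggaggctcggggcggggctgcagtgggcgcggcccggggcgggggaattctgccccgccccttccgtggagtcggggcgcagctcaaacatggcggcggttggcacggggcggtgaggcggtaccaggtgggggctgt
Hmgcs1: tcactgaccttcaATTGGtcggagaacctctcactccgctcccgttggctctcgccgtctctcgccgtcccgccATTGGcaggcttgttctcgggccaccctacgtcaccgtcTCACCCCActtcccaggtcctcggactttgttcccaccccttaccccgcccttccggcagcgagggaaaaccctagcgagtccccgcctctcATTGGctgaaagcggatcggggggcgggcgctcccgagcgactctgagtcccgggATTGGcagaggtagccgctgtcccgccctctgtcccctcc
Msmo1: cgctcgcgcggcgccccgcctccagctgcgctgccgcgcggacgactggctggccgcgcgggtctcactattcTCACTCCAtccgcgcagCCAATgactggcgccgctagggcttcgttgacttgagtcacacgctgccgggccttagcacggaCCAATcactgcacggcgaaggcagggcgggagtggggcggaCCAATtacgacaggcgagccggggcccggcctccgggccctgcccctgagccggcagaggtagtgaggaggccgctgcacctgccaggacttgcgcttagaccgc
A promoter was found for 28 of the 34 genes (39 promoters, as some genes have several starts). TCACNCCA occurred in 4 of the 39, those of Hmgcs1, Msmo1, Srebf2 and Apoe (10.3%), against 4.36% of 32851 promoters in the table. CCAAT occurred in 22 of the 39 (56.4%), against 37.4% of all promoters. By gene, at least 1 promoter held it in 14 of 15 enzymes and 7 of 13 transport, storage and regulator genes. No share by gene over all genes is given, and the 37.4% counts promoters, so it is not a background for these. A match of letters is not a bound site, and the promoters were not assayed here.

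The comparison of 24mSC with 5mSC asked how the pathway differs with age under standard housing. Srebf1 and Lss were higher in 24mSC, the only 2 of the 34 genes that passed the threshold of an adjusted p of 0.05 in edgeR's quasi-likelihood test, where 0.803% of all genes tested passed. The transport, storage and regulator genes had mostly positive differences, 15 of 16 with a median log2 fold change of 0.24, while the enzymes were divided, 11 of 18 positive with a median of 0.09. Over all genes tested, 52.0% of differences were negative and the median was -0.01. At an unadjusted p under 0.05, 2 enzymes and 9 of the 16 other genes were higher, against a background of 8.72% of all genes, and 0 of the 34 were lower, against 11.7% of all genes.

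Srebf1 (ENSMUSG00000020538, chromosome 11, 60199089 to 60222581, minus strand, GRCm38) had 81.0, 93.1, 89.5, 80.5 and 77.9 CPM in 24mSC, against 69.6, 67.6, 32.2, 56.8 and 48.8 CPM in 5mSC. Every 24mSC library was above every 5mSC library, a separation seen for 2 of the 34 genes and for 3.24% of all genes tested. Its fitted log2 fold change was 0.61 ± 0.138 (SE, edgeR adjusted p = 0.0421), or 1.53-fold. Without 5mSC replicates 1 and 3 it was 0.55 (edgeR adjusted p = 0.00817), and Srebf1 was then the only one of the 34 genes to pass, in a fit where 2.14% of all genes passed.

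Lss (ENSMUSG00000033105, chromosome 10, 76531588 to 76557138, plus strand) had 37.5, 39.1, 37.1, 40.2 and 37.1 CPM in 24mSC, against 22.2, 33.5, 25.2, 29.7 and 29.8 CPM in 5mSC. The 24mSC libraries lay close to one another and again above all 5mSC libraries. Its log2 fold change was 0.44 ± 0.101 (SE, edgeR adjusted p = 0.0433), or 1.36-fold. Leaving out 5mSC replicates 1 and 3, in which Lss was lowest, gave 0.30 (edgeR adjusted p = 0.0783), so the call for Lss was lost. In a fit of 24mSC and 5mSC alone neither gene passed, with edgeR adjusted p = 0.231 for Lss and 0.29 for Srebf1.

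**Figure D1:**
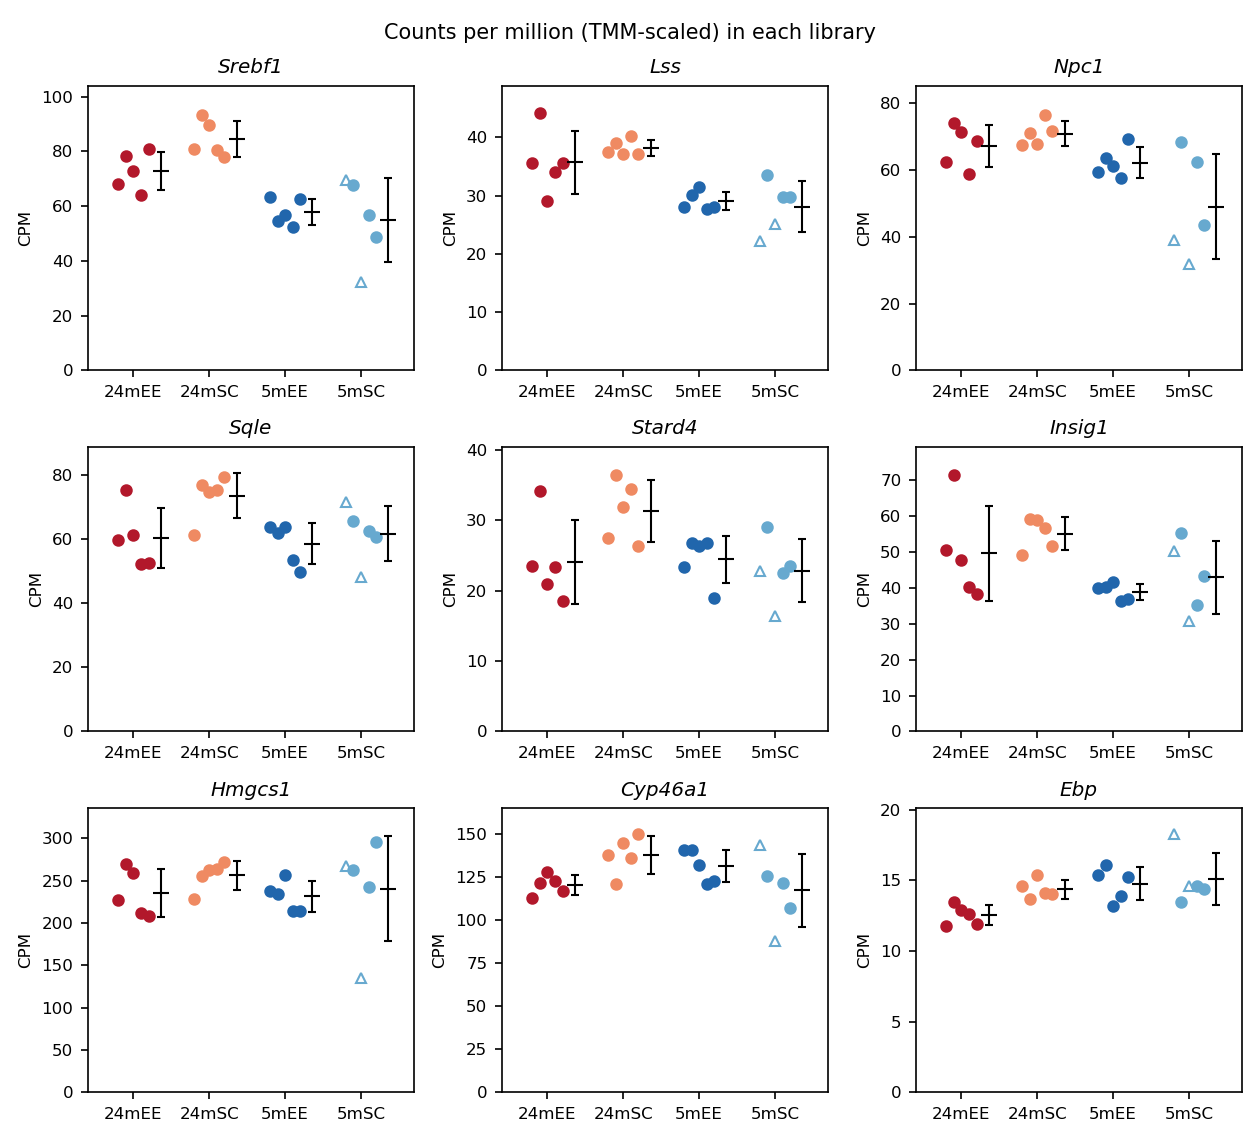
TMM-scaled CPM (y axis, from 0) of 9 cholesterol genes in each library, by group on the x axis. Points are libraries, open triangles are 5mSC replicates 1 and 3, and the bar beside each group is the mean ± SD of its 5 libraries; for Srebf1 and Lss every 24mSC library lies above every 5mSC library, and for Ebp every 24mEE library lies below every 24mSC library.

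Npc1, the protein that lets cholesterol leave lysosomes, had 67.5, 71.0, 67.6, 76.5 and 71.5 CPM in 24mSC, against 39.0, 68.4, 31.7, 62.3 and 43.4 CPM in 5mSC. A single 5mSC library, replicate 2, reached into the 24mSC range. Npc1 had a log2 fold change of 0.53 ± 0.144 (SE, edgeR adjusted p = 0.0701). This was 0.29 without 5mSC replicates 1 and 3 (edgeR adjusted p = 0.141). Sqle, the squalene epoxidase that commits squalene to sterols, had 61.3, 76.9, 74.6, 75.5 and 79.3 CPM in 24mSC, against 71.6, 65.6, 48.2, 62.6 and 60.8 CPM in 5mSC. Here 4 of 5 24mSC libraries were above all 5mSC ones, and 24mSC replicate 1 was not (log2 fold change 0.25 ± 0.111, edgeR adjusted p = 0.216, and 0.22 without 5mSC replicates 1 and 3).

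The master regulator Srebf2 had 221, 214, 222, 226 and 223 CPM in 24mSC, against 191, 203, 107, 215 and 188 CPM in 5mSC, where replicate 3 was far below the rest and replicate 4 reached the 24mSC range. Its log2 fold change was 0.29 ± 0.119 with all libraries and 0.13 without 5mSC replicates 1 and 3 (edgeR adjusted p = 0.186 and 0.188). Insig1, itself a target of SREBP2, had 49.1, 59.2, 58.8, 56.7 and 51.6 CPM in 24mSC, against 50.2, 55.3, 30.8, 35.2 and 43.4 CPM in 5mSC, and the groups overlapped (log2 fold change 0.35 ± 0.151, edgeR adjusted p = 0.197, and 0.31 without these replicates). Insig2 had a log2 fold change of 0.02, and -0.04 without them, with means of 55.2 ± 2.77 CPM in 24mSC, against 54.2 ± 9.40 CPM in 5mSC (SD, n = 5 each). Hmgcs1 changed sign with the libraries used: 228, 255, 262, 264 and 272 CPM in 24mSC stood against 267, 262, 135, 242 and 296 CPM in 5mSC. Its log2 fold change was 0.09 ± 0.141 with all libraries and -0.07 without 5mSC replicates 1 and 3 (edgeR adjusted p = 0.765 and 0.72).

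Genes of export (Abca1, Abcg1, Apoe), uptake (Lrp1), turnover (Cyp46a1) and transport between membranes (Stard4) had positive differences that did not pass. Abca1, the transporter that loads cholesterol onto APOE, had 69.7, 70.1, 59.6, 63.2 and 62.9 CPM in 24mSC, against 38.4, 67.3, 48.0, 59.5 and 48.5 CPM in 5mSC. All 5 24mSC libraries exceeded the 5mSC mean of 52.3 CPM, but 5mSC replicate 2 lay among them. For Abca1 the log2 fold change was 0.32 ± 0.115 (SE, edgeR adjusted p = 0.139) and 0.16 without 5mSC replicates 1 and 3. Its partner Abcg1 averaged 63.6 ± 5.36 CPM in 24mSC, against 53.5 ± 8.43 CPM in 5mSC, and Lrp1 averaged 550 ± 64.9 CPM in 24mSC, against 441 ± 77.3 CPM in 5mSC (SD, n = 5 each). Their log2 fold changes were 0.24 for Abcg1 and 0.32 for Lrp1 with all libraries, and 0.15 and 0.16 without 5mSC replicates 1 and 3. Apoe had 1592, 1534, 1587, 1486 and 1418 CPM in 24mSC, against 1802, 1253, 728, 1451 and 1344 CPM in 5mSC, so that 5mSC replicates 1 and 3 were the extremes of both groups (log2 fold change 0.21 ± 0.154, edgeR adjusted p = 0.455, and 0.17 without these replicates). Cyp46a1, which turns cholesterol over in neurons, had 138, 121, 145, 136 and 150 CPM in 24mSC, against 144, 126, 88.0, 122 and 107 CPM in 5mSC (log2 fold change 0.23 ± 0.0976, edgeR adjusted p = 0.195). Its difference was nearly the same without 5mSC replicates 1 and 3, at 0.22 (edgeR adjusted p = 0.101). Stard4, a sterol carrier between membranes, had 27.4, 36.4, 31.9, 34.4 and 26.3 CPM in 24mSC, against 22.8, 29.0, 16.4, 22.5 and 23.5 CPM in 5mSC (log2 fold change 0.44 ± 0.153, edgeR adjusted p = 0.121, and 0.33 without these replicates).

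None of the other enzymes passed, and most of their values moved toward 0 or changed sign without 5mSC replicates 1 and 3. Mvk, the mevalonate kinase, averaged 20.0 ± 2.29 CPM in 24mSC, against 16.8 ± 4.65 CPM in 5mSC (log2 fold change 0.22 ± 0.141, and 0.12 without these replicates). Acat2, the acetoacetyl-CoA thiolase of the first step, had 0.21 ± 0.124, and 0.17 without them. Dhcr7, which performs a last reduction to cholesterol, had 0.20 ± 0.0977, and 0.14 without them, and Fdft1 had 0.19 ± 0.120, and 0.10 without them. Cyp51, Msmo1, Tm7sf2 and Nsdhl, which work on lanosterol and its products, and Ebp had values between -0.07 and -0.01 with all libraries. Cyp51 and Msmo1 had -0.11 and -0.09 without 5mSC replicates 1 and 3, while Tm7sf2, Nsdhl and Ebp turned to 0.01, 0.07 and 0.02. Hsd17b7 had 0.13 with all libraries and -0.06 without these replicates, and Sc5d had 0.01 and -0.09. Mvd, the mevalonate diphosphate decarboxylase, had 0.10 and then 0.02, Idi1 had 0.15 and then 0.00, and Pmvk had -0.15 and then 0.01. Fdps had -0.46 ± 0.397 and Nr1h3 -0.49 ± 0.248, with 5mSC replicate 3 far above all other libraries in both, and without 5mSC replicates 1 and 3 they had 0.38 and -0.19. Among carriers and sensors, Scap had 0.13, the lysosomal carrier Npc2 0.10, Soat1, which esterifies cholesterol for storage, 0.05 and Nr1h2 0.02, and without these replicates they had 0.14, 0.01, 0.05 and 0.03. In all, 9 of the 34 genes changed sign without 5mSC replicates 1 and 3, 8 of them enzymes, and none of the 9 had passed.

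Without 5mSC replicates 1 and 3, 1 enzyme and 4 of the 16 other genes kept an unadjusted p under 0.05 in the higher direction, where the background was 9.82% of all genes, and 0 of the 34 in the lower one, where it was 10.1%. The median of the enzymes became 0.02 and that of the other genes 0.15. Lists of the pathway outside the 34 genes differed in their medians. With all libraries, 13 of 16 fatty acid synthesis and desaturation genes had positive differences, with a median of 0.17. At an unadjusted p under 0.05, 7 of the 16 were higher, against a background of 8.72% of all genes, and 0 passed. Among these, Scd1, the stearoyl-CoA desaturase, averaged 239 ± 46.3 CPM in 24mSC, against 169 ± 38.7 CPM in 5mSC (log2 fold change 0.50 ± 0.153, edgeR adjusted p = 0.0925). Without 5mSC replicates 1 and 3 the value of Scd1 was 0.33 (edgeR adjusted p = 0.244), and the fatty acid list was 9 of 16 positive with a median of 0.04. Of 27 other lipoprotein and sterol transport genes 16 were positive, with a median of 0.05 and 0 passing. The smallest p was that of the lipid transporter Abca2, at 318 ± 17 CPM in 24mSC, against 244 ± 44.5 CPM in 5mSC (log2 fold change 0.38 ± 0.105, edgeR adjusted p = 0.0701). For Abca2 it was 0.26 without 5mSC replicates 1 and 3 (edgeR adjusted p = 0.142). Of 16 other sterol and isoprenoid branch genes 8 were positive with a median of 0.01, and of 11 genes of SREBP processing and sterol-dependent degradation 5 were positive with a median of -0.01, with 0 passing in either list.

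Marker lists of cell types and regions moved in both directions beside these values. At an unadjusted p under 0.05, 8.72% of all genes tested were higher in 24mSC and 11.7% were lower. The 7 neocortex markers had a median log2 fold change of 0.40 between 24mSC and 5mSC, 5 of 7 positive and 3 with an unadjusted p under 0.05, with mean levels of 4.83 to 5.21 in 24mSC and 4.43 to 5.12 in 5mSC. The 11 mature oligodendrocyte markers were all positive with a median of 0.19 and 0 with an unadjusted p under 0.05, at 6.89 to 7.64 in 24mSC and 6.68 to 7.40 in 5mSC. Astrocyte markers were 6 of 8 positive with a median of 0.08, and 3 of 8 with -0.06 without 5mSC replicates 1 and 3. Neuron markers were 6 of 7 positive with a median of 0.17, and 5 of 7 with 0.06 without these replicates. Oligodendrocyte precursor markers were divided, 3 of 6 positive with a median of -0.02, and 1 passed as lower. The 6 microglia markers were all positive and 1 passed, at 5.90 to 6.09 in 24mSC and 5.03 to 5.89 in 5mSC. In the other direction, the 6 meningeal fibroblast markers were all negative with a median of -0.61 and 4 with an unadjusted p under 0.05, at 2.68 to 3.27 in 24mSC and 2.98 to 4.11 in 5mSC. The 6 markers of pyramidal cells of CA1 to CA3 had a median of -0.26, 4 of them negative and 3 with an unadjusted p under 0.05, at 5.38 to 5.56 in 24mSC and 5.08 to 5.91 in 5mSC. Choroid plexus markers had a median of -0.85, 6 of 7 negative, at 0.89 to 1.70 in 24mSC and 0.85 to 3.08 in 5mSC. Leaving out 5mSC replicates 1 and 3 gave medians of 0.37 for neocortex, 0.10 for mature oligodendrocytes, 0.12 for microglia, -0.40 for meningeal fibroblasts, -0.31 for pyramidal cells and, with the sign turned, 0.34 for choroid plexus. No marker of these lists was at 0 in a group, and their part in the differences of the cholesterol genes was not tested. In bulk tissue, fewer cells of a type and less RNA per cell cannot be told apart.

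**Figure D2:**
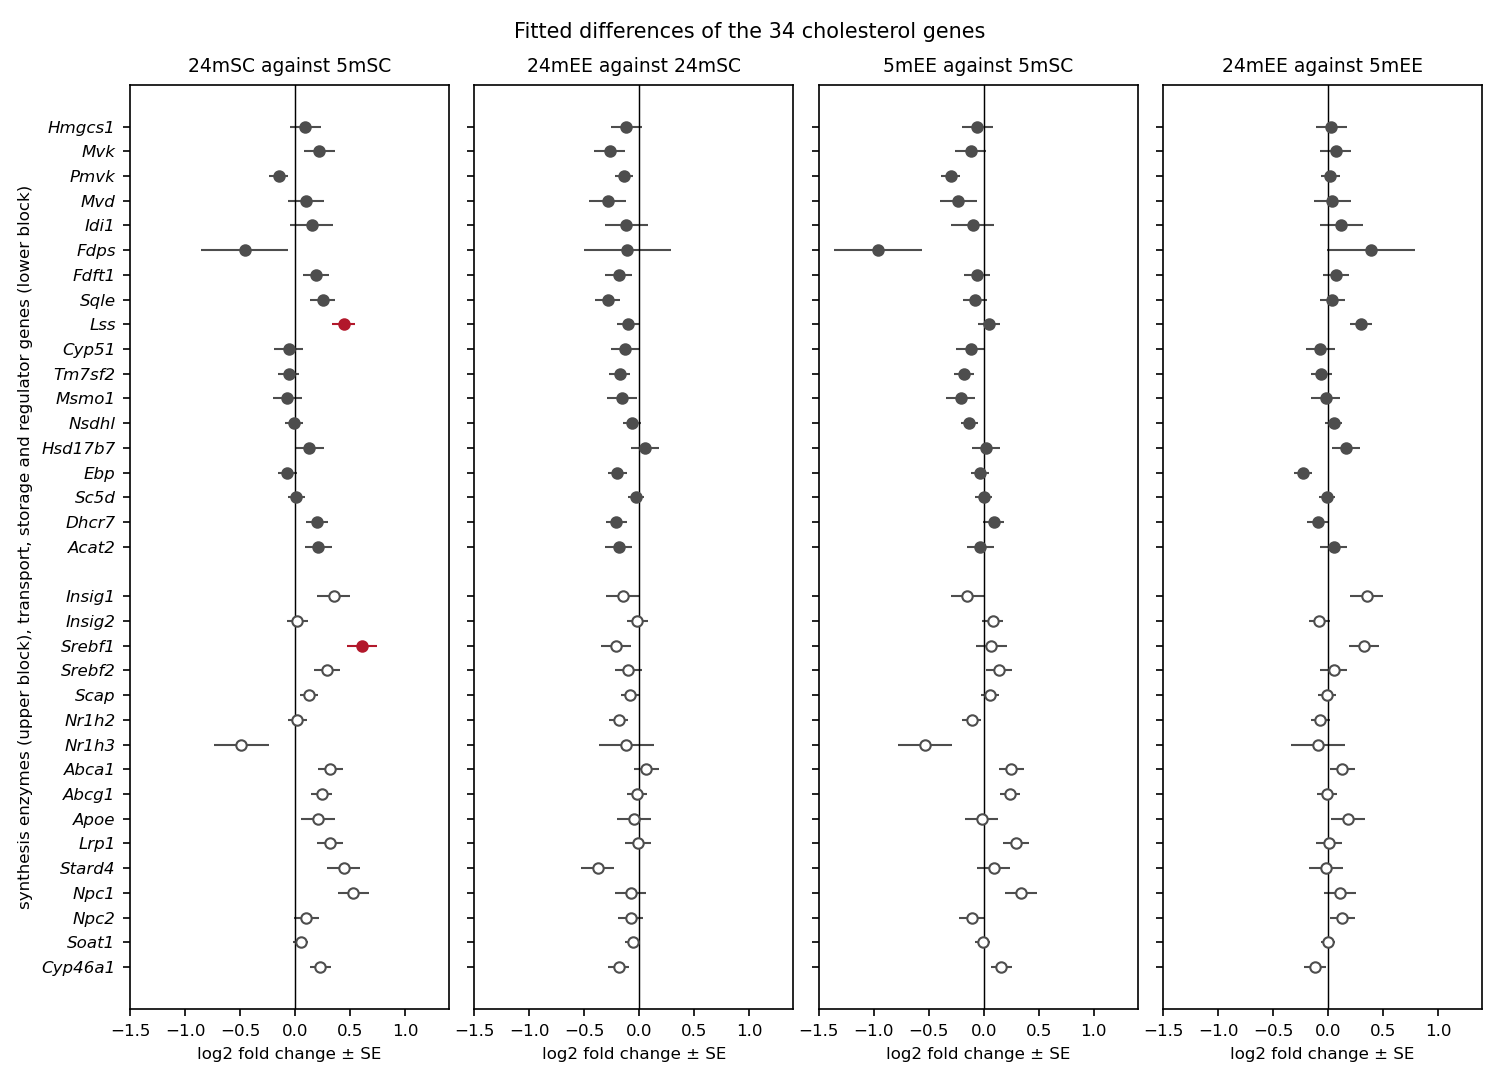
Log2 fold change with its standard error (x axis) of each of the 34 genes (rows) in the 4 pairwise comparisons (panels), from the edgeR fit of all 20 libraries. Filled points in the upper block are synthesis enzymes, open points in the lower block are transport, storage and regulator genes, and red points passed an adjusted p of 0.05, which were Srebf1 (0.61) and Lss (0.44) in 24mSC against 5mSC; in 24mEE against 24mSC 32 of the 34 points lie left of 0.

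The comparison of 24mEE with 24mSC asked what late enrichment does to the pathway in old mice. It shares the 24mSC libraries with the comparison of ages. Differences of the synthesis enzymes were negative almost throughout, 17 of 18 with a median log2 fold change of -0.15, and 15 of the 16 other genes were negative, with a median of -0.09. Over all genes tested 50.6% were negative and the median was 0.00. No single gene passed: 0 of 34 in edgeR, as for 0.0% of all genes tested, and 0 in DESeq2. At an unadjusted p under 0.05, 3 enzymes (Sqle, Ebp and Dhcr7) and 2 other genes (Stard4 and Nr1h2) were lower, against a background of 3.99%, and 0 were higher, against 2.22%.

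Sqle had 59.9, 75.4, 61.3, 52.2 and 52.6 CPM in 24mEE, against 61.3, 76.9, 74.6, 75.5 and 79.3 CPM in 24mSC. The groups overlapped through 24mEE replicate 2, the highest of its group, and 24mSC replicate 1, the lowest of its own. Sqle thus had a log2 fold change of -0.29 ± 0.111 (SE, edgeR adjusted p = 0.618). Ebp, the sterol isomerase of the late pathway, had 11.8, 13.5, 12.9, 12.6 and 11.9 CPM in 24mEE, against 14.6, 13.7, 15.4, 14.1 and 14 CPM in 24mSC. Ebp was the 1 gene of the 34 whose groups did not overlap here, against 3.43% of all genes (log2 fold change -0.20 ± 0.0827, edgeR adjusted p = 0.673). Dhcr7 averaged 29.1 ± 2.11 CPM in 24mEE and 33.6 ± 2.21 CPM in 24mSC (SD, n = 5 each, edgeR adjusted p = 0.787).

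Stard4 had 23.5, 34.1, 20.9, 23.3 and 18.5 CPM in 24mEE, against 27.4, 36.4, 31.9, 34.4 and 26.3 CPM in 24mSC. Its difference was the largest of the 34 in size, -0.38 ± 0.152 (edgeR adjusted p = 0.652), with 24mEE replicate 2 again in the range of 24mSC. Nr1h2, the liver X receptor found in most cells, had 41.2, 46.0, 42.3, 44.7 and 36.4 CPM in 24mEE, against 45.8, 55.1, 49.0, 50.5 and 39.8 CPM in 24mSC (log2 fold change -0.19 ± 0.0859, edgeR adjusted p = 0.738). The other liver X receptor gene, Nr1h3, had means of 4.28 ± 1.10 CPM in 24mEE and 4.67 ± 0.498 CPM in 24mSC.

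The regulators and the entry enzyme had negative values with overlapping groups. Srebf1 had 68.1, 78.3, 72.7, 64.0 and 80.8 CPM in 24mEE, against 81.0, 93.1, 89.5, 80.5 and 77.9 CPM in 24mSC, with 3 of 5 24mEE libraries below every 24mSC library. Its log2 fold change was -0.21 ± 0.137 (edgeR adjusted p = 0.983). Srebf2 had 199, 214, 222, 200 and 198 CPM in 24mEE, against 221, 214, 222, 226 and 223 CPM in 24mSC (log2 fold change -0.10 ± 0.119, edgeR adjusted p = 0.999). Insig1 spread most in 24mEE, with 50.4, 71.3, 47.7, 40.2 and 38.2 CPM, against 49.1, 59.2, 58.8, 56.7 and 51.6 CPM in 24mSC (log2 fold change -0.15 ± 0.150). The highest and the lowest value of both groups were 24mEE libraries. Hmgcs1 had 227, 270, 259, 212 and 208 CPM in 24mEE, against 228, 255, 262, 264 and 272 CPM in 24mSC (log2 fold change -0.12 ± 0.141), and the groups overlapped.

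Export and clearance genes gave small values. Abca1 had 78.7, 66.6, 64.3, 56.0 and 73.9 CPM in 24mEE, against 69.7, 70.1, 59.6, 63.2 and 62.9 CPM in 24mSC, and was with Hsd17b7 the only positive gene of the 34 (log2 fold changes 0.06 and 0.05). Apoe had 1675, 1464, 1431, 1450 and 1338 CPM in 24mEE, against 1592, 1534, 1587, 1486 and 1418 CPM in 24mSC (log2 fold change -0.05 ± 0.154). Cyp46a1 had 113, 122, 128, 123 and 117 CPM in 24mEE, against 138, 121, 145, 136 and 150 CPM in 24mSC. All of its 24mEE libraries lay below the 24mSC mean, and 24mSC replicate 2 lay within their range (log2 fold change -0.19 ± 0.0975, edgeR adjusted p = 0.846). Among the enzymes not yet given, Mvd had -0.29, Mvk -0.27, Acat2 and Fdft1 -0.19, Tm7sf2 -0.18, Msmo1 -0.16, Pmvk -0.14, Cyp51 -0.13, Idi1 -0.12, Fdps -0.11, Lss -0.10, Nsdhl -0.07 and Sc5d -0.03. Among the other genes, Scap had -0.09, Npc1 and Npc2 -0.08, Soat1 -0.06, Insig2 and Abcg1 -0.02 and Lrp1 -0.01.

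The spread set by 5mSC replicates 1 and 3 entered this comparison through the shared model. Without them, 9 enzymes and 5 other genes had an unadjusted p under 0.05 in the lower direction, where the background was 7.33%, and 0 in the higher one, where it was 6.43%, and still 0 of the 34 passed. Their medians were then -0.15 and -0.08. The enzymes varied together between libraries, so the 17 negative values are not 17 separate observations. Without 24mEE replicate 2, 18 of 18 enzymes were negative with a median of -0.24, and 13 of 16 other genes with a median of -0.10. This library was picked for its enzyme level, the highest of all, so the shift of the enzymes follows from the choice. Counts without 24mSC replicate 1, the lowest of its group for the enzymes, are not given here. The mean log2 level of the enzymes was 4.63, 4.87, 4.62, 4.56 and 4.46 in 24mEE, against 4.67, 4.83, 4.84, 4.78 and 4.80 in 24mSC.

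Fatty acid genes shared the direction, with 14 of 16 negative and a median of -0.08, and 0 had an unadjusted p under 0.05. Of 27 other lipoprotein and sterol transport genes 13 were negative, with a median of 0.02. At an unadjusted p under 0.05, 3 of the 27 were lower, against a background of 3.99% of all genes, and 0 were higher. Other lists did not share the direction. Of 16 other sterol and isoprenoid branch genes 8 were negative with a median of 0.00. Of 11 genes of SREBP processing and sterol-dependent degradation 4 were negative with a median of 0.01. Each of the 7 neocortex markers had a negative value here, with a median of -0.44. At an unadjusted p under 0.05, 3 of the 7 were lower, against a background of 3.99% of all genes. For these markers 24mEE replicate 2 had the highest level of its group, 5.05 against 4.44 to 4.53 in the other 4. Markers of the hippocampal fields had mostly positive values in the same comparison. At an unadjusted p under 0.05, 2.22% of all genes were higher here. Those of dentate gyrus granule cells were 6 of 6 positive with a median of 0.37 and 2 with an unadjusted p under 0.05, at 5.28 to 5.56 in 24mEE and 4.45 to 5.41 in 24mSC. Those of pyramidal cells of CA1 to CA3 were 4 of 6 positive with a median of 0.39, and these 4 had an unadjusted p under 0.05, at 5.30 to 5.84 in 24mEE and 5.38 to 5.56 in 24mSC. The 11 mature oligodendrocyte markers had a median of -0.12, 9 of them negative, at 6.77 to 7.52 in 24mEE and 6.89 to 7.64 in 24mSC. The part of these cell mixtures in the enzyme values was not tested.

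**Figure D3:**
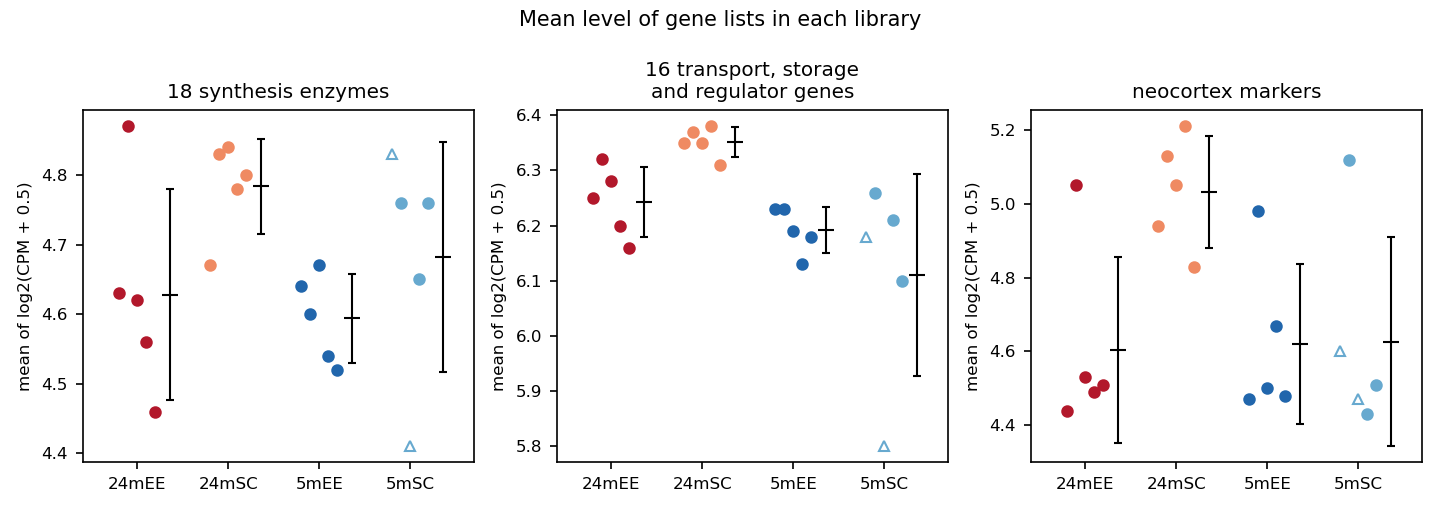
Mean log2(CPM + 0.5) (y axis) of the 18 synthesis enzymes, the 16 transport, storage and regulator genes and the 7 neocortex markers in each library, by group on the x axis. Points are libraries, open triangles are 5mSC replicates 1 and 3, and bars are the mean ± SD of 5 libraries; the y axes do not start at 0, 24mEE replicate 2 is the highest of its group in all 3 panels (4.87 for the enzymes) and 5mSC replicate 3 the lowest of all libraries for both cholesterol lists.

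The comparison of 5mEE with 5mSC asked for the same effect in young mice. Differences of the enzymes were mostly negative, 15 of 18 with a median log2 fold change of -0.09, and the other genes were divided, 10 of 16 positive with a median of 0.08. Over all genes tested 53.9% were negative, with a median of -0.02. In edgeR 0 of the 34 passed, as for 0.0% of all genes, and DESeq2 also gave 0. At an unadjusted p under 0.05, 2 enzymes (Pmvk and Fdps) and Nr1h3 were lower, against a background of 10%, and 4 other genes (Abca1, Abcg1, Lrp1 and Npc1) were higher, against 6.52%. No member had groups that did not overlap, as 1.62% of all genes did.

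Pmvk, the phosphomevalonate kinase, had 30.2, 30.1, 30.8, 29.0 and 27.9 CPM in 5mEE, against 41.6, 33.9, 43.5, 30.4 and 33.5 CPM in 5mSC. All 5mEE libraries lay below the 5mSC mean of 36.6 CPM, and 5mSC replicates 1 and 3 were the highest. The log2 fold change was -0.30 ± 0.0851 (edgeR adjusted p = 0.223) and -0.14 without these replicates (edgeR adjusted p = 0.738). Fdps had 1.18, 1.30, 1.31, 1.53 and 1.33 CPM in 5mEE, against 1.76, 1.22, 7.89, 1.42 and 1.63 CPM in 5mSC, with 5mSC replicate 3 far above the rest. Its log2 fold change was -0.96 ± 0.400 and, without 5mSC replicates 1 and 3, -0.13. Nr1h3 likewise had 13.6 CPM in 5mSC replicate 3, while 5mEE lay at 3.46 to 5.19 CPM and 5mSC without replicate 3 at 4.39 to 5.45 CPM. The log2 fold change of Nr1h3 was -0.53 ± 0.245, and -0.22 without 5mSC replicates 1 and 3.

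Abcg1, a cholesterol exporter, had 67.4, 63.7, 61.7, 55.4 and 67.8 CPM in 5mEE, against 56.0, 58.9, 39.4, 60.6 and 52.5 CPM in 5mSC (log2 fold change 0.24 ± 0.0933, edgeR adjusted p = 0.247). Without 5mSC replicates 1 and 3 it was 0.14. Lrp1 had 544, 529, 633, 490 and 501 CPM in 5mEE, against 393, 501, 343, 532 and 434 CPM in 5mSC (log2 fold change 0.29 ± 0.118, edgeR adjusted p = 0.251), and 0.14 without these replicates. Abca1 had 66.4, 60.5, 61.5, 59.5 and 63.1 CPM in 5mEE, against 38.4, 67.3, 48.0, 59.5 and 48.5 CPM in 5mSC (log2 fold change 0.25 ± 0.114, and 0.09 without these replicates). For Npc1 the log2 fold change was 0.34 ± 0.144, and 0.10 without these replicates. For Abcg1, Lrp1 and Npc1 5mSC replicate 3 was the lowest library of both groups, and for Abca1 replicate 1 was.

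Other regulators and carriers overlapped fully. Srebf2 had 199, 208, 205, 191 and 192 CPM in 5mEE (log2 fold change 0.14 ± 0.119, and -0.02 without 5mSC replicates 1 and 3), and Insig1 had 39.8, 40.1, 41.5, 36.2 and 36.8 CPM in 5mEE, against 50.2, 55.3, 30.8, 35.2 and 43.4 CPM in 5mSC (log2 fold change -0.15 ± 0.151, and -0.19 without them). Sqle had 63.9, 61.8, 63.9, 53.6 and 49.9 CPM in 5mEE, against 71.6, 65.6, 48.2, 62.6 and 60.8 CPM in 5mSC (log2 fold change -0.08 ± 0.111, and -0.11 without 5mSC replicates 1 and 3). The 5mEE libraries of Insig1 all lay below the 5mSC mean of 43.0 CPM. Apoe had 1544, 1218, 1295, 1202 and 1241 CPM in 5mEE, inside the wide 5mSC range of 728 to 1802 CPM (log2 fold change -0.02 ± 0.154, and -0.06 without them). Cyp46a1 had 141, 141, 132, 121 and 123 CPM in 5mEE, against 144, 126, 88.0, 122 and 107 CPM in 5mSC, with every 5mEE library above the 5mSC mean of 117 CPM (log2 fold change 0.16 ± 0.0975, edgeR adjusted p = 0.409, and 0.15 without them). Lss and Srebf1, higher in 24mSC, had log2 fold changes of 0.05 ± 0.101 and 0.07 ± 0.138 here, and -0.09 and 0.01 without these replicates. In all, 5 of the 34 genes changed sign without them (Lss, Hsd17b7, Ebp, Srebf2 and Stard4).

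Without 5mSC replicates 1 and 3, 16 of 18 enzymes were negative with a median of -0.13, and 5 enzymes and 1 other gene had an unadjusted p under 0.05 in the lower direction, where the background was 4.44%. In the higher direction it was 1 of the 34 genes, Cyp46a1, where the background was 2.28%. Hmgcs1 then had a log2 fold change of -0.21 (edgeR adjusted p = 0.73), with 238, 234, 256, 214 and 214 CPM in 5mEE, against 262, 242 and 296 CPM in 5mSC replicates 2, 4 and 5. The median of the other genes was then 0.00, with 8 of 16 negative. Fatty acid genes had 13 of 16 positive values and a median of 0.15 with all libraries, and 8 of 16 and 0.00 without 5mSC replicates 1 and 3. Meningeal fibroblast markers were 6 of 6 negative between 5mEE and 5mSC with all libraries, with a median of -0.58. Their levels were 2.93 to 3.18 in 5mEE and 2.98 to 4.11 in 5mSC. At an unadjusted p under 0.05, 3 of the 6 were lower, against a background of 10% of all genes. The median was -0.36 without 5mSC replicates 1 and 3. Dentate gyrus granule cell markers were 5 of 6 positive with a median of 0.33, at 4.94 to 5.77 in 5mEE and 4.95 to 5.71 in 5mSC, and the median was 0.16 without them. Choroid plexus markers had a median of 0.02 with all libraries, and of 0.92 without them, with 7 of 7 positive and 5 with an unadjusted p under 0.05. The part of these mixtures in the values of the cholesterol genes was not tested.

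The comparison of 24mEE with 5mEE gave the difference of ages among enriched mice and holds no 5mSC library. Enzymes were close to level, 12 of 18 positive with a median log2 fold change of 0.04, as were the other genes, 8 of 16 positive with a median of 0.01, while all genes had a median of 0.00. In edgeR 0 of the 34 passed, where 0.108% of all genes did, and DESeq2 gave 0. At an unadjusted p under 0.05 there were 1 enzyme (Lss) and 2 other genes (Srebf1 and Insig1) higher, against a background of 2.71%, and 1 enzyme (Ebp) lower, against 1.9%.

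Srebf1 had 68.1, 78.3, 72.7, 64.0 and 80.8 CPM in 24mEE, against 63.3, 54.7, 56.7, 52.2 and 62.5 CPM in 5mEE. Every 24mEE library lay above every 5mEE library, as for no other gene of the 34, against 2.76% of all genes. The log2 fold change was 0.33 ± 0.137 (edgeR adjusted p = 0.91) in the fit of all libraries and 0.33 (edgeR adjusted p = 0.0862) without 5mSC replicates 1 and 3. Lss had 35.6, 44.1, 29.1, 34.1 and 35.6 CPM in 24mEE, against 28.1, 30.1, 31.4, 27.7 and 28.1 CPM in 5mEE, with 24mEE replicate 3 inside the 5mEE range (log2 fold change 0.30 ± 0.10, edgeR adjusted p = 0.664). Without 5mSC replicates 1 and 3, which enter here only through the shared spread, Lss had 0.30 (edgeR adjusted p = 0.101). Srebf1 and Lss thus had positive values in each comparison of ages, as 20 of the 34 genes were positive here. The comparisons share no library but share 1 estimate of the spread. Both genes were picked for passing in the first comparison, and agreement between the comparisons was not tested.

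Insig1 had 50.4, 71.3, 47.7, 40.2 and 38.2 CPM in 24mEE, against 39.8, 40.1, 41.5, 36.2 and 36.8 CPM in 5mEE (log2 fold change 0.35 ± 0.151, edgeR adjusted p = 0.96), and without 24mEE replicate 2 the log2 fold change was 0.19. Ebp had 11.8, 13.5, 12.9, 12.6 and 11.9 CPM in 24mEE, against 15.4, 16.1, 13.2, 13.9 and 15.2 CPM in 5mEE. The groups overlapped through 24mEE replicate 2 and 5mEE replicate 3 alone (log2 fold change -0.23 ± 0.0821, edgeR adjusted p = 0.691). Without 5mSC replicates 1 and 3 the edgeR adjusted p was 0.298 for Insig1 and 0.113 for Ebp. Apoe had 1675, 1464, 1431, 1450 and 1338 CPM in 24mEE, against 1544, 1218, 1295, 1202 and 1241 CPM in 5mEE, where replicate 1 was the sole young library within the old range (log2 fold change 0.18 ± 0.154). Cyp46a1 had -0.12 ± 0.0974, Abca1 0.13 ± 0.114, Srebf2 0.05 ± 0.119, Sqle 0.04 ± 0.111 and Hmgcs1 0.03 ± 0.141, all with overlapping groups. Without 24mEE replicate 2, picked for its high enzyme level, the enzymes had 8 of 18 positive values and a median of -0.02. This shift follows from the choice of library. Outside the 34 genes, Apod, a lipid-binding lipoprotein, was the sole gene of the 4 pathway lists to pass, with 175 ± 41.9 CPM in 24mEE and 93.0 ± 23.2 CPM in 5mEE (log2 fold change 0.92 ± 0.157, edgeR adjusted p = 0.0231). Among cell type markers, choroid plexus was 7 of 7 negative with a median of -0.86. Oligodendrocyte precursors were 5 of 6 negative with a median of -0.14, and 1 passed as lower. Microglia markers were 6 of 6 positive with a median of 0.11. Their part in the values of the cholesterol genes was not tested.

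The interaction term asked whether the housing difference at 24 months differs from that at 5 months. In edgeR 0 of the 34 passed, as for 0.0% of all genes, and DESeq2 gave 0. At an unadjusted p under 0.05, 3 genes had negative terms, against a background of 3.61%, and 0 had positive ones, against 4.4%. These were Cyp46a1 (-0.35 ± 0.138, edgeR adjusted p = 0.621), Stard4 (-0.47 ± 0.216, edgeR adjusted p = 0.621) and Dhcr7 (-0.29 ± 0.138, edgeR adjusted p = 0.621). For Cyp46a1 the means were 121 ± 5.57 CPM in 24mEE, 138 ± 10.8 CPM in 24mSC, 131 ± 9.31 CPM in 5mEE and 117 ± 21.1 CPM in 5mSC (SD, n = 5 each), and the term was -0.34 (edgeR adjusted p = 0.406) without 5mSC replicates 1 and 3. That of Stard4 was then -0.35 (edgeR adjusted p = 0.639) and that of Dhcr7 -0.23 (edgeR adjusted p = 0.524).

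Within groups, the enzymes varied together from library to library. Levels were taken as log2(CPM + 0.5) minus the mean of the library's own group, so that age and housing drop out, and 5mSC replicates 1 and 3 were left out. Over the 153 pairs of enzymes the median Pearson r was 0.45 (from -0.23 to 0.93) and 94.8% were positive, against a median of 0.08 and 61.7% positive over the 120 pairs of transport, storage and regulator genes (18 libraries). With these replicates included the medians were 0.38 and 0.32. Cyp51, the lanosterol demethylase, followed the mean of the other enzymes most closely (r = 0.89), with Fdft1, the squalene synthase, and Sc5d, the lathosterol oxidase, at 0.88, Msmo1 and Sqle at 0.86 and Hmgcs1 at 0.80. Lss and Mvk reached 0.53 and Ebp 0.15. The libraries share depth, dissection and scaling, and these values are descriptions of 18 libraries.

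Among the other 16 genes, Insig1 stood closest to the enzymes, with r = 0.89 and Spearman's rho = 0.86 against their mean, and r = 0.75 without the 2 libraries farthest from the median of Insig1 (24mEE replicates 2 and 5). Of the 16658 other genes tested, 0 had an r as high, and their 5% and 95% limits were -0.51 and 0.49. Stard4 came next with r = 0.77 and rho = 0.65 (r = 0.59 without its 2 farthest libraries), a value that 0.06% of the other genes reached. Srebf2 had r = 0.28 (rho = 0.27) and Srebf1 r = 0.16 (rho = 0.16), values that 22% and 35.5% of the other genes reached, and Abca1 had r = -0.11, Abcg1 -0.19, Lrp1 -0.37 and Scap -0.39. With all 20 libraries Insig1 had r = 0.91 and Stard4 r = 0.79, while Srebf2 had 0.64 and Srebf1 0.61. For Srebf1 this was 0.20 without its 2 farthest libraries, 5mSC replicates 1 and 3, and for Srebf2 0.56 without 5mSC replicates 3 and 4. The neocortex markers had r = 0.51 and rho = 0.27 with the enzyme mean over 18 libraries and r = 0.17 without the 2 libraries farthest from their median, and mature oligodendrocyte and astrocyte markers had r = 0.27 and 0.51. No p-values are given for these relations, since the gene list was chosen with results of these libraries known.

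**Figure D4:**
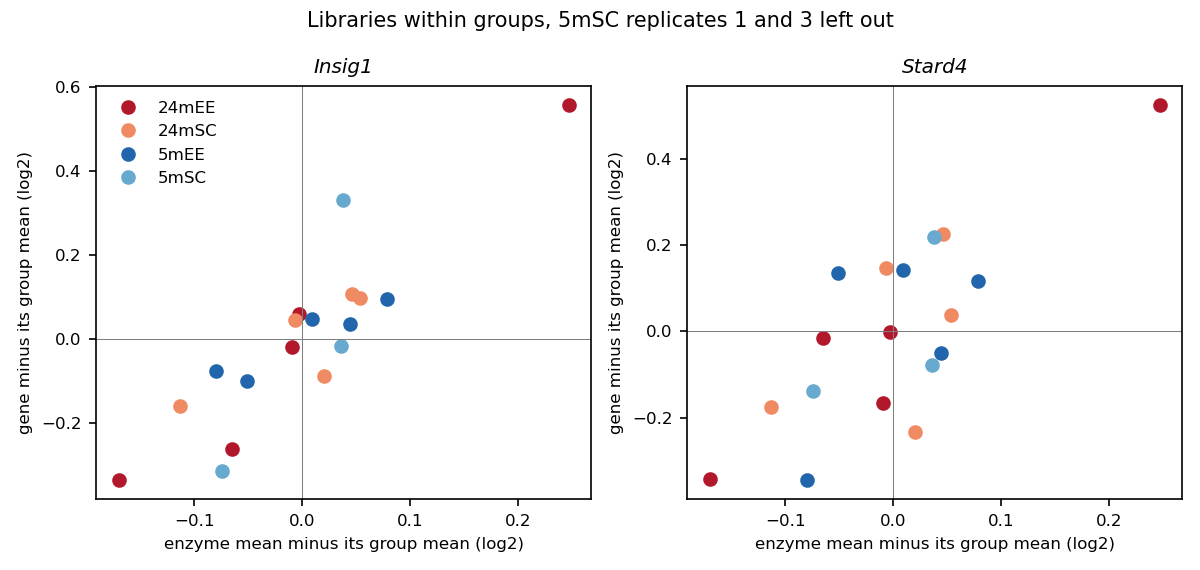
Log2 level of Insig1 (left) and Stard4 (right) minus its group mean (y axis), against the mean log2 level of the 18 synthesis enzymes minus its group mean (x axis), in 18 libraries coloured by group. 24mEE replicate 2 lies at the upper right of both panels (0.25 for the enzymes and 0.56 for Insig1) and 24mEE replicate 5 at the lower left of the Insig1 panel (-0.17 and -0.34).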

How the data were processed

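RNA of hippocampus from 20 mice was sequenced as 50-base single-end reads from a kit that does not mark strand. The authors deposited raw read counts per Ensembl gene, and per the submitters' processing notes the tools were featureCounts 1.4.6-p4, bcl2fastq 1.8.2 and, as aligner, STAR 2.4.1d, with build GRCm38. A deposited table of RPKM values of the same libraries was not used, since the counts carry the depth. Groups came from the labels. The replicates are individual samples per the methods, were numbered here in accession order and pair nothing, and p-values measure the spread between these samples. The study fitted pairs of groups in DESeq2 with the sequencing run as a term, which could not be copied because the labels give no run. Its fits also held more mice per group, and its counts came from another aligner and annotation than the deposited ones. The numbers of genes passing here are therefore not comparable with those of the study.

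Counts were tested in edgeR 4.0.16 (R 4.3.3, limma 3.58.1) with TMM scaling, filterByExpr (at least 10 counts in the smallest group size of 5 libraries, total of 15) and quasi-likelihood tests in 1 model of 4 groups, two-sided, adjusted by Benjamini-Hochberg over 16692 genes with a threshold of 0.05. Gene symbols were found for 99.1% of identifiers (GENCODE M21). Levels are CPM on TMM-scaled libraries, and means over lists and correlations used log2(CPM + 0.5). Totals were 10963348 to 34107138 counts, so that 3 counts, the most that a count of 0 allows, were 0.0882 to 0.329 CPM, which covers counting error only. The pipeline was tested on simulated data. Python 3.11.15, numpy 2.4.6, pandas 2.3.3, scipy 1.17.1 and matplotlib 3.10.9 were used for the rest.

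The 34 genes, the pathway and marker lists and the comparisons were chosen with earlier results of these data known. Values per library are given, for enzymes and for the other genes of each comparison, for all that passed or else the 2 with the smallest p, and always for Hmgcs1, Sqle, Srebf2, Insig1, Abca1, Apoe and Cyp46a1, and further genes and libraries were chosen after their values were seen. Alternatives were DESeq2 1.42.0, its size factors, 2 other filters, fits of only 2 groups, other pseudocounts, and fits without single libraries or without 5mSC replicates 1 and 3. The 2 motifs were searched in RefSeq promoters.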

Additional observations from a re-analysis of the deposited data

Results flagged for a closer look

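The 17 genes given by library and the 2 lists were checked in each of 4 groups of 5 for a library far from the other 4, by the gap to its nearest neighbour over the range of the group (above 0.71 for 5 libraries). Of 76 groups 5 held such a library, and chance gives about 1 in 20. Sqle was low in 24mSC replicate 1, at 61.3 CPM against 74.6 to 79.3 CPM in the other 4 libraries of its group. Ebp was high in 5mSC replicate 1, at 18.3 CPM against 13.5 to 14.6 CPM. Fdps was high in 5mSC replicate 3, at 7.89 CPM against 1.22 to 1.76 CPM, and Srebf2 was low in the same library, at 107 CPM against 188 to 215 CPM. Apoe was high in 5mEE replicate 1, at 1540 CPM against 1200 to 1300 CPM in the other 4.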

How the results depend on the processing

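Between 24mSC and 5mSC, 2 of the 34 genes passed. The number was 0 without the filter on low counts, 0 in a fit of only 24mSC and 5mSC, 1 (Srebf1) without 5mSC replicates 1 and 3, and 1 (Srebf1) in a fit of only these groups without those replicates, an alternative chosen after seeing the data. DESeq2 gave 3 (Lss, Srebf1 and Npc1), and its size factors and a filter of 1 CPM gave 2 each. Leaving out single libraries of any group gave 0 to 5. It was 5 without 5mSC replicate 2 (Abca1, Lss, Srebf1, Npc1 and Stard4), 1 without 5mSC replicate 1 (Srebf1) or 24mEE replicate 3 (Lss), and 0 without 5mSC replicate 5, any 24mSC library, any 5mEE library or 24mEE replicates 1, 4 or 5. Leaving out libraries of 24mEE and 5mEE here was chosen after seeing the data, and these libraries enter only through the shared spread. The log2 fold change of Lss ran over 0.30 to 0.51 and that of Srebf1 over 0.47 to 0.70, with adjusted p from 0.00492 to 0.231 and from 0.00409 to 0.29 (edgeR and DESeq2). Hmgcs1 between 24mSC and 5mSC turned to -0.07 without 5mSC replicates 1 and 3, to -0.06 in the fit of only these groups without them, and to -0.07 without 5mSC replicate 3, and without single libraries it ran over -0.07 to 0.17. Of 462 values under alternatives of 28 gene results, the named genes and not all 34 in every comparison, 436 kept their direction and side of the threshold and 3, of Hmgcs1, changed sign. Over all 34 genes, leaving out 5mSC replicates 1 and 3 turned the sign of 9 between 24mSC and 5mSC, 5 between 5mEE and 5mSC and 7 in the interaction, none of which had passed, and of 0 in the other comparisons. In the other comparisons and the interaction 0 of the 34 passed under each alternative run. Mean differences of both lists kept their sign under the pseudocounts and size factors, and without single libraries that of the enzymes between 24mEE and 5mEE ran over -0.03 to 0.07. The spread over all genes, as edgeR's biological coefficient of variation, was 17.4% with 20 libraries and 9.88% without 5mSC replicates 1 and 3. No paired analysis was possible because the labels number no replicates. The shallowest library, 5mSC replicate 3 with 10963348 counts, gives the least precise values for Fdps, Idi1 and Nr1h3.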
